A study of Homo sapiens with 8 samples.

Results

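The genes described here are 10 targets and mediators of the endoplasmic reticulum (ER) unfolded protein response: the chaperones HSPA5, HSP90B1 and CALR, the folding enzyme PDIA4, the co-chaperones DNAJB9 and SDF2L1, the transcription factor XBP1, and HERPUD1, SEL1L and EDEM1, which serve the degradation of misfolded ER proteins. They were found by gene symbol in the array's platform annotation. Of the 10, 9 had a probe set, out of 17709 named probe sets among 21448 for transcripts, and HSP90B1 was not analysed here. All 9 passed the filter on low levels. Levels were read on 8 one-colour Affymetrix arrays of untreated and treated cells of the line MT-1, which comes from adult T cell leukaemia, and of MT-2, which consists of T cells carrying the leukaemia virus HTLV-1. MT-1 cells received no compound, 500 nM OR21 (a DNA demethylating agent), 2500 nM EPZ-6438 or both at these doses. EPZ-6438 is the EZH2 inhibitor tazemetostat, which blocks the methylation of histone H3 by that enzyme. MT-2 cells received no compound, 100 nM OR21, 500 nM EPZ-6438 or both. Exposure lasted 96 h in both lines, with compound added at seeding and at 48 h, and each of the 8 groups was 1 array. Dose and line therefore cannot be told apart. The question was whether the unfolded protein response moved in opposite directions in MT-1 and MT-2.

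When unfolded proteins build up in the ER, HSPA5 (BiP), the main chaperone of the ER lumen, leaves the stress sensors IRE1, ATF6 and PERK. IRE1 splices XBP1 mRNA so that it encodes an active transcription factor, cleaved ATF6 enters the nucleus, and both raise genes for chaperones and for ER-associated degradation, while PERK slows translation and raises ATF4. In lymphocytes this programme is best known from plasma cells, which need XBP1 to secrete antibody. The probe set for XBP1 is annotated to both the unspliced and the spliced transcript, so its level does not separate them.

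The ER stress response element, to which ATF6 and XBP1 are known to bind together with the CCAAT factor NF-Y, was looked for in the 250 bases before each gene's start (RefSeq, GRCh38.p14). The stretches that follow are shown because the genes that hold such an element did not move alike on the arrays. Capitals mark a match on either strand to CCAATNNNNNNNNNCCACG (with any last base in HERPUD1) or to the related element ATTGGNCCACG. Sequences run 5′ to 3′ along the gene.
HSPA5, chr9:125241361-125241439, minus strand: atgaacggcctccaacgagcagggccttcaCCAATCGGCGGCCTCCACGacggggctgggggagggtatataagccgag
XBP1, chr22:28800573-28800651, minus strand: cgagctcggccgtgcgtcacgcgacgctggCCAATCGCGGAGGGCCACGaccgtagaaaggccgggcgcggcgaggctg
CALR, chr19:12938359-12938432, plus strand: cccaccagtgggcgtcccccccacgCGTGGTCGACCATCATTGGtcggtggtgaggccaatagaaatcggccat
HERPUD1, chr16:56931995-56932107, plus strand: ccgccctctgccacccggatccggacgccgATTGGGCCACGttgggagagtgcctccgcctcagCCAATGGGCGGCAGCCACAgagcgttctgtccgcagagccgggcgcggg
SDF2L1, chr22:21642084-21642154, plus strand: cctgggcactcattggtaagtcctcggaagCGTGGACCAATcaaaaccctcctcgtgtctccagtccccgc
The match lay 66 to 48 bases before the start in HSPA5, 52 to 34 bases in XBP1 and, on the opposite strand, 225 to 207 bases in CALR. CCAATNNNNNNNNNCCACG was found in 4 of the 10 genes, HSPA5, XBP1, CALR and HSP90B1, and in 0.0769% of 27305 promoters. With any last base it also matched HERPUD1 (5 of 10; 0.289% of promoters). ATTGGNCCACG was found in HERPUD1 and SDF2L1, and in 0.0549% of promoters, and the site in HERPUD1 (117 to 107 bases before the start) does not overlap its other match. DNAJB9, PDIA4, SEL1L and EDEM1 held no match to these letters in this window. TGACGTGG, the core of the element bound by XBP1, was in 0 of the 10 and in 0.685% of promoters. CCAAT alone was in all 10 and in 33.0% of promoters. A match is a description of the sequence and not evidence of binding.

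The values are log2 levels. Array medians lay between 6.44 and 6.68, and the background level, which 95% of an array's negative controls do not exceed, between 7.19 and 7.80. The median of the array rose in MT-1 by 0.16 with OR21 and 0.23 with both agents, against 0.05 and 0.06 in MT-2, and changes of the 9 genes that turn when this shift is removed are named below. Of 10 T cell markers, CD5, CCR4 and IL2RA stood above background on all 8 arrays, CD28 only in MT-1 and CD4 only in MT-2, while CD2, CD3D, CD3E and CD3G stood above it on none. Of 10 markers of other cells with a probe set, 7 never stood above background. The summed log2 level of the 10 in MT-1 was 48.6 untreated, 52.4 with OR21, 49.0 with EPZ-6438 and 57.2 with both. On these arrays 0, 0, 1 and 3 of them stood above background. The sum therefore rests mostly on values under background and gives no amount of other cells. In MT-2 the sum lay between 55.6 and 58.1, with 1 or 2 above background. The plasma cell marker SDC1 stood at 8.93 to 9.80 on the 4 MT-2 arrays and EPCAM at 8.66 with both agents in MT-1. The part of these markers in the changes of the 9 genes was not tested.

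HSPA5 moved in opposite directions in the lines on every treated array, by small amounts. In MT-1 it stood at 14.59 untreated, 13.93 with OR21, 14.34 with EPZ-6438 and 14.08 with both. In MT-2 the levels were 14.06, 14.23, 14.23 and 14.28 in the same order. The untreated array was the highest of the MT-1 arrays and the lowest of the MT-2 arrays, and the lines overlapped. Against untreated, MT-1 changed by -0.66, -0.24 and -0.51 and MT-2 by 0.18, 0.17 and 0.23, and all 6 kept their sign with arrays centred on their medians and with cyclic loess. In such bulk RNA, fewer cells with a transcript and less of it per cell cannot be told apart.

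EDEM1, a lectin-like factor that takes misfolded glycoproteins to degradation, was the other gene with this pattern. Its MT-1 levels were 10.74 untreated, 10.12 with OR21, 10.37 with EPZ-6438 and 10.16 with both, and its MT-2 levels 8.19, 8.27, 8.22 and 8.90. Every treated MT-1 array lay below the untreated array and every MT-2 array above it, but in MT-2 only the array with both agents moved by more than 0.1 (changes of 0.08, 0.04 and 0.71, against -0.62, -0.37 and -0.59 in MT-1). A fall on all 3 treated MT-1 arrays with a rise on all 3 treated MT-2 arrays was seen for 744 of the 12942 probe sets tested, or 5.75%.

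XBP1 had the highest rise of the 9 genes, and it was in MT-2. XBP1 stood at 8.74 in untreated MT-2 cells, 9.81 with OR21, 9.47 with EPZ-6438 and 10.38 with both, so that all 3 treated arrays lay above the untreated array, by 1.08, 0.73 and 1.65. In MT-1 it stood at 11.68, 11.60, 12.10 and 11.21. There it was higher with EPZ-6438 (0.43), lower with both (-0.47) and close to untreated with OR21 (-0.08, and 0.06 with cyclic loess). The lowest MT-1 level was still above the highest MT-2 level.

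PDIA4, a protein disulfide isomerase, followed OR21 in MT-2. Its MT-2 levels were 10.21 untreated, 10.86 with OR21, 9.81 with EPZ-6438 and 10.61 with both, the arrays with OR21 being the upper ones. In MT-1 it was highest untreated (12.05) and stood at 11.66, 11.83 and 11.58 on the treated arrays. The change with OR21 was -0.39 (MT-1) and 0.65 (MT-2), that with both -0.47 and 0.40, while with EPZ-6438 it was lower in both lines (-0.22 and -0.40).

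SDF2L1, which works with HSPA5 and its co-chaperones, fell in MT-1. Its level there was 8.64 untreated, 7.74 with OR21, 8.49 with EPZ-6438 and 7.25 with both, the last just above the background of 7.19. The changes were -0.90, -0.15 and -1.39. On the MT-2 arrays it lay between 6.08 and 6.96, under background on all 4, so no change is given for that line.

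DNAJB9 (ERdj4), a co-chaperone of HSPA5 and a target of XBP1, and SEL1L, the scaffold of the HRD1 ubiquitin ligase, were highest with both agents in each line. DNAJB9 stood at 8.56, 8.49, 8.33 and 8.83 in MT-1 (untreated, OR21, EPZ-6438, both) and at 8.43, 8.71, 8.11 and 9.07 in MT-2. SEL1L stood at 10.89, 11.0, 11.01 and 11.35 in MT-1 and at 10.70, 11.01, 10.57 and 11.34 in MT-2. With both agents the MT-1 and MT-2 levels of DNAJB9 were higher by 0.27 and 0.64, and those of SEL1L by 0.46 and 0.63. On the both-agent arrays these genes therefore did not separate the lines by direction. The sign differed between the lines for DNAJB9 with OR21 (-0.08 and 0.28) and for SEL1L with EPZ-6438 (0.12 and -0.14). In both lines DNAJB9 was lower with EPZ-6438 alone (-0.23 and -0.32) and higher with both agents than the sum of the separate changes, by 0.58 and 0.68.

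HERPUD1, an ER membrane protein of the degradation complex, followed the agent and not the line. Its levels were 12.46, 12.25, 12.91 and 12.75 in MT-1 and 12.72, 12.22, 13.09 and 12.54 in MT-2. It was lower with OR21 (-0.21 and -0.50) and higher with EPZ-6438 (0.45 and 0.37) in both lines, and differed in sign only with both agents (MT-1 0.29, MT-2 -0.18). CALR, a lectin chaperone of the ER lumen, barely moved. It ranged from 15.71 to 15.85 in MT-1 and from 15.50 to 15.65 in MT-2, and its 6 changes lay between -0.08 and 0.08.

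**Figure D1:**
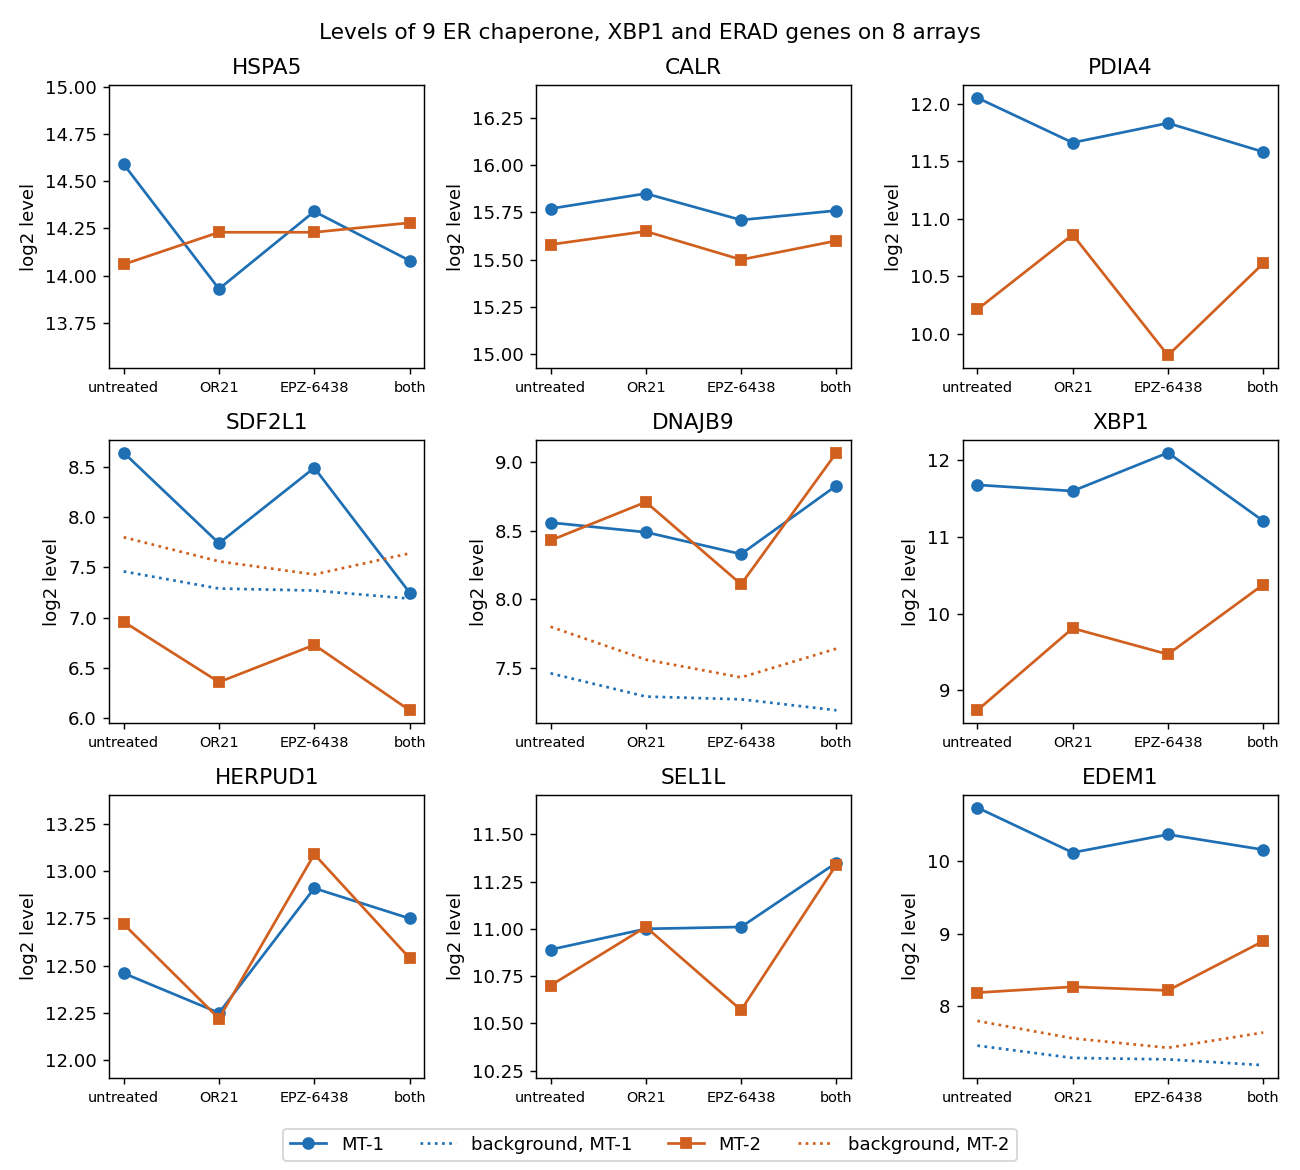
Log2 level of the 9 genes (vertical axes, 1 panel per gene, each with its own range) on the untreated, OR21, EPZ-6438 and both-agent array of MT-1 (circles) and MT-2 (squares). Each point is 1 array, and dotted lines give the background of each array where it falls in the panel. XBP1 climbed from 8.74 to 10.38 in MT-2, and SDF2L1 lay under background on all 4 MT-2 arrays.

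Counted over the 9 genes, the sign of the change differed between the lines for 5 with OR21 (41.4% of all probe sets tested), for 3 with EPZ-6438 (45.9%) and for 6 with both (42.1%). SDF2L1 is counted among those of like sign, although it was under background in MT-2. The shares of all probe sets include probe sets never above background, such as CD3E, since the filter (6.573) lies below every array's background. Their part in these shares was not tested. With OR21 the 5 were HSPA5, XBP1, DNAJB9, PDIA4 and EDEM1. Each was lower on the OR21 array of MT-1 (XBP1 and DNAJB9 by -0.08) and higher on that of MT-2. This count became 7 with median-centred arrays, where CALR and SEL1L turned in MT-1, and 3 with cyclic loess, where XBP1 and DNAJB9 turned in MT-1. With both agents it was 5 under either scaling, because CALR changed sign (to -0.04 in MT-2 with median centring and to 0.07 in MT-1 with cyclic loess). With EPZ-6438 HSPA5, EDEM1 and SEL1L differed in sign, and SEL1L was higher in MT-1 and lower in MT-2. The median change of the 9 genes with OR21, EPZ-6438 and both was -0.21, -0.15 and -0.47 in MT-1, beside -0.06, -0.02 and -0.05 for all probe sets tested. In MT-2 it was 0.18, -0.08 and 0.40, beside -0.06, -0.02 and -0.02. The medians of the T cell markers had the same signs with OR21 and with both: over the 7 tested, OR21 gave -0.41 (MT-1) and 0.16 (MT-2), both agents gave -0.79 and 0.27, and their median difference of OR21 effects was 0.78, beside 0.45 for the 9 genes and 0.03 for all probe sets. Of these 7, 3 stood above background on all arrays, so the medians include values under background. Of the 3, CD5 and IL2RA changed with OR21 by -0.47 and -0.37 in MT-1 and by 0.14 and 0.39 in MT-2. CCR4 was lower with OR21 in both lines (-0.9 and -0.29). CD28 went from 12.80 in untreated MT-1 to 8.72 with both agents. The part of the shift in these markers in the result was not tested.

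Few of the changes were of 1 log2 unit or more. These were the changes of XBP1 in MT-2 with OR21, where 4.05% of all probe sets moved that far in either direction, XBP1 in MT-2 with both (7.0%) and SDF2L1 in MT-1 with both (20.9%). None of the 9 reached it in MT-1 with OR21 (9.09%), nor with EPZ-6438 in MT-1 (1.32%) or in MT-2 (1.25%).

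**Figure D2:**
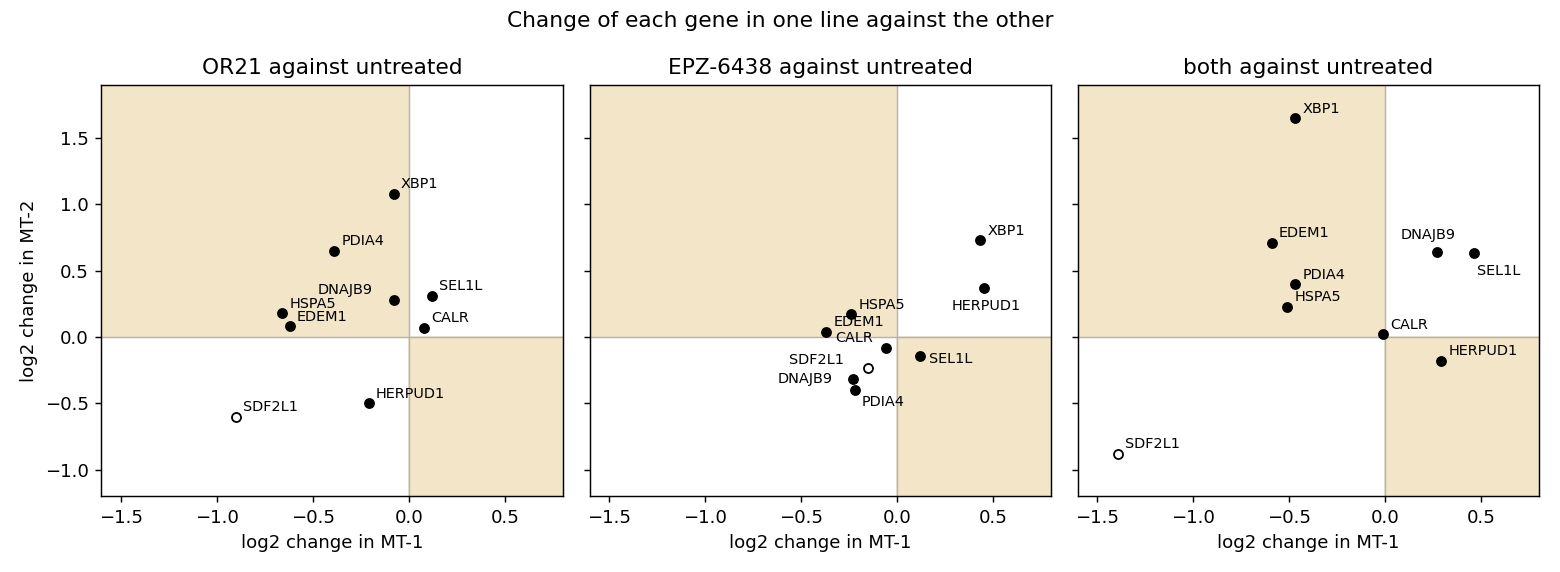
Log2 change against the untreated array in MT-2 (vertical axis) and in MT-1 (horizontal axis) for OR21, EPZ-6438 and both, 1 point per gene and 1 array per value. Shaded areas hold genes of opposite sign, the open circle is SDF2L1, which is under background in MT-2, and with OR21 5 of the 9 genes lie in the upper left.

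Whether the lines responded differently was tested with a limma model over all 8 arrays, in which the effect of an agent in a line is the mean difference between its arrays with and without that agent. The estimated OR21 effect on XBP1 was -0.48 in MT-1 (limma adjusted p = 0.206) and 1.0 in MT-2 (0.134). The MT-1 estimate averages -0.08 (OR21 against untreated) and -0.89 (both agents against EPZ-6438), and the MT-2 estimate 1.08 and 0.92. It is therefore not the effect of OR21 alone, for which the change in MT-2 minus that in MT-1 was 1.15. The estimated difference, MT-2 minus MT-1, was 1.48 (95% interval 0.69 to 2.27), with a limma adjusted p of 0.0615. The next were PDIA4 at 1.05 (0.46 to 1.64, adjusted p = 0.0697), EDEM1 at 0.80 (0.06 to 1.54, adjusted p = 0.199) and HSPA5 at 0.58 (-0.06 to 1.21, adjusted p = 0.267). None of the 9 passed an adjusted p of 0.05, where 4.1% of all probe sets did, and 3 had an unadjusted p under 0.05, where 2849 of the 12942 probe sets did. At this threshold a difference between the lines in the OR21 effect was therefore not shown for any of the 9 genes. The unadjusted intervals of XBP1, PDIA4 and EDEM1 lay above 0. The difference can depart from 0 without opposite signs in the lines, so it does not test direction by itself. DNAJB9 (0.41), SEL1L (0.31), HERPUD1 (-0.34) and CALR (0.02) had intervals that held 0, for CALR from -0.55 to 0.60. The estimated OR21 effect on DNAJB9 was positive in each line, 0.21 (MT-1) and 0.62 (MT-2). Its MT-1 value averages -0.08 (OR21 against untreated) and 0.5 (both agents against EPZ-6438). The fitted value for SDF2L1, 0.45, is no measured difference, since this gene was under background on every MT-2 array.

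The XBP1 difference lay on both sides of the threshold under other settings. Its adjusted p was 0.0473 with median-centred arrays (difference 1.59) and 0.0109 with a variance trend, and leaving out 1 array at a time gave 0.0179 to 0.273. The lowest of these came without the untreated or without the OR21 array of MT-1. With 1 array of a line left out, this model fits that line exactly, and the spread comes from the other line alone. The part of the array and that of the changed spread cannot be told apart, here and in the calls below. PDIA4 passed with the trend (adjusted p = 0.0174) and not with median centring (0.0505).

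For the summed effect of both agents, 0 of the 9 passed, against 3.51% of all probe sets. Median centring called 1 of the 9, the variance trend 1, and values raised to background 3. An unadjusted p under 0.05 was found for 3 of the 9, and for 3011 of the 12942 probe sets. XBP1 differed by 2.11 (1.0 to 3.23, limma adjusted p = 0.0615), EDEM1 by 1.30 (adjusted p = 0.145), PDIA4 by 0.87 (adjusted p = 0.197) and HSPA5 by 0.73 (adjusted p = 0.294). For EPZ-6438 no probe set passed in limma (0 of 12942, with 1193 at an unadjusted p under 0.05), and the largest difference of the 9 was that of XBP1, 0.64 (adjusted p = 0.597).

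Within MT-1, SDF2L1 was the gene of the 9 that passed for OR21, with an effect of -1.07 (95% interval -1.50 to -0.63, limma adjusted p = 0.0128). That is 1 of 9, where 16.5% of all probe sets passed. Without the EPZ-6438 array of MT-1 its adjusted p was 0.109, and without the both-agent array 0.113. HSPA5 had an effect of -0.46 (adjusted p = 0.144). Within MT-2 none of the 9 passed for OR21, where 0.889% of all probe sets did, and 6 had an unadjusted p under 0.05, as had 2100 of all 12942 probe sets. Among them were XBP1 at 1.0, PDIA4 at 0.73 (adjusted p = 0.140), DNAJB9 at 0.62, SEL1L at 0.54 and, lower, HERPUD1 at -0.53 (adjusted p = 0.222). The sixth was SDF2L1, under background there. For EPZ-6438, 0 of the 9 passed in either line, where in MT-1 0.0232% of all probe sets passed and in MT-2 0.0%. The lowest p belonged to HERPUD1 in MT-1 (0.47, limma adjusted p = 0.302, unadjusted p = 0.0291) and XBP1 in MT-2 (0.65, adjusted p = 0.404, unadjusted p = 0.0281).

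Taking the lines as repeats of a treatment asks instead what they shared. No probe set passed in limma for OR21, EPZ-6438, both agents or the excess of both over the sum of the agents, while 1079, 285, 2489 and 223 had an unadjusted p under 0.05. With both agents SDF2L1 had an estimate of -1.13 (limma adjusted p = 0.163), of which the MT-2 part is under background, and SEL1L one of 0.55 (adjusted p = 0.241). XBP1 had 0.59 with an interval from -0.63 to 1.81.

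Levels were compared between the lines over all treatments. XBP1 averaged 11.65 ± 0.37 in MT-1 and 9.60 ± 0.69 in MT-2 (SD, n = 4 arrays of different treatment), EDEM1 10.35 ± 0.29 and 8.40 ± 0.34, and PDIA4 11.78 ± 0.21 and 10.37 ± 0.46. In the limma model of line and treatment, MT-2 was lower for XBP1 by -2.05 (95% interval -2.91 to -1.18, adjusted p = 0.00303), for EDEM1 by -1.95 (-2.51 to -1.39, adjusted p = 0.000599) and for PDIA4 by -1.41 (-2.01 to -0.80, adjusted p = 0.00332). SDF2L1 was also called (-1.50, adjusted p = 0.000402). Since it is under background in MT-2, MT-1 is higher by at least 0.42, and with values under background raised to it the call was lost (adjusted p = 0.182). That makes 4 of 9, all lower in MT-2, where 63.4% of all probe sets passed (40.7% of all lower and 22.7% of all higher in MT-2).

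The remaining 5 genes did not pass. HSPA5 differed by -0.04, DNAJB9 by 0.03, HERPUD1 by 0.05, SEL1L by -0.16 and CALR by -0.19, with adjusted p from 0.234 to 0.893. The 4 levels of MT-1 and the 4 of MT-2 did not overlap for 5 of the 9 genes (XBP1, SDF2L1, PDIA4, EDEM1 and CALR), as for 57.0% of all probe sets. The gap between the lines in XBP1 was 2.94 between the untreated arrays and 0.83 between the arrays with both agents. The median line difference of all probe sets was -0.30, and 0.00 with cyclic loess, under which XBP1 (-1.54), EDEM1 (-1.51) and PDIA4 (-0.90) stayed called and lower in MT-2. HSPA5, CALR and SEL1L changed sign under it, and HERPUD1 was called higher in MT-2 (0.49, adjusted p = 0.0329).

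Among the other genes of the response, the difference between the lines with the lowest adjusted p was that of STC2. STC2, a secreted glycoprotein induced by ATF4, stood at 10.07, 8.76, 9.46 and 7.99 in MT-1 (untreated, OR21, EPZ-6438, both) and at 7.90, 9.35, 8.10 and 9.74 in MT-2. Both arrays with OR21 were the lowest in MT-1 and the highest in MT-2. OR21 lowered it in MT-1 (-1.39, limma adjusted p = 0.00495) and raised it in MT-2 (1.55, adjusted p = 0.0221), a difference of 2.94 (2.34 to 3.53, adjusted p = 0.00256). Leaving out 1 array at a time gave an adjusted p of 0.00314 to 0.0620, and the call was lost without the untreated, the EPZ-6438 or the both-agent array of MT-2.

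CHAC1, a glutathione-degrading enzyme induced by ATF4, also differed (2.10, adjusted p = 0.0125). It stood at 8.98, 7.80, 9.36 and 7.95 in MT-1, the arrays with OR21 being the lower ones, and at 7.72, 8.74, 8.46 and 9.06 in MT-2, where the untreated array was under background and the rise with OR21 was at least 0.93. Its call was lost without any 1 of the 4 MT-2 arrays, where the spread comes from MT-1 alone. ATF4 itself, the transcription factor of this arm, had an OR21 effect of -0.98 in MT-1 (adjusted p = 0.0149) and 0.18 in MT-2, a difference of 1.16 that did not pass (adjusted p = 0.0557). TRIB3, an inhibitor of ATF4 signalling, fell in MT-1 (-1.37, adjusted p = 0.00606) and had an effect of -0.31 in MT-2.

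Over the 12 genes of the PERK and ATF4 arm, 4 passed for OR21 in MT-1, all lower (STC2, CHAC1, ATF4 and TRIB3). Of all probe sets, 16.5% passed there in either direction. In MT-2, 1 of the 12 passed and was higher (STC2), where 0.889% of all probe sets passed in either direction. The difference of OR21 effects was called for 2 of the 12, both higher in MT-2, against 4.1% of all probe sets. The median change of the list with OR21, EPZ-6438 and both was -0.71, 0.16 and -0.60 for MT-1, 0.17, 0.31 and 0.32 for MT-2, and kept these signs with median-centred arrays and cyclic loess. Only 4 of the 12 stood above background on all 8 arrays.

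Among 17 further ER folding factors, 3 passed for OR21 in MT-1, all lower, where 16.5% of all probe sets passed in either direction. In MT-2, 0 passed (0.889% of all). MANF, a secreted protein that binds HSPA5, stood at 10.14, 8.99, 9.77 and 8.13 in MT-1 and between 8.30 and 8.71 in MT-2, and its OR21 effect in MT-1 was -1.39 (limma adjusted p = 0.00692). TXNDC5, a protein disulfide isomerase, also fell (-0.85, adjusted p = 0.0389). FKBP2, a prolyl isomerase of the ER, was the third (-1.57, adjusted p = 0.00615). FKBP2 dropped under background on both OR21 arrays of MT-1, a fall of at least 1.39 with OR21, and in MT-2 it was above background only with EPZ-6438 (7.55) and with both agents (8.14). The fitted difference of its OR21 effects was 2.22 (limma adjusted p = 0.0140), and it rests in part on levels under background in both lines. The call was lost without any 1 of the MT-2 arrays, where the spread comes from MT-1 alone.

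ERO1B, an oxidase that supplies disulfide bonds in the ER, went the opposite way. It stood at 10.08, 10.48, 10.20 and 10.94 in MT-1 and at 11.50, 10.83, 11.46 and 10.65 in MT-2, so that the OR21 arrays were the upper ones in MT-1 and the lower ones in MT-2. The difference was -1.31 (limma adjusted p = 0.0457), and 0.0537 with median-centred arrays. The call was also lost without the EPZ-6438 or both-agent array of MT-1 and without any 1 of the MT-2 arrays (adjusted p up to 0.260). CRELD2, a protein of the ER induced by ER stress, changed by 0.99 (MT-1) and 0.43 (MT-2) with both agents.

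The ER-associated degradation list held no gene that passed in either line for either agent (12 tested; 16.5% of all probe sets passed for OR21 in MT-1). SYVN1, the ubiquitin ligase HRD1 that SEL1L holds, stood at 10.29, 10.54, 10.13 and 10.95 in MT-1 and at 10.43, 10.95, 10.35 and 11.30 in MT-2. Like SEL1L it was highest with both agents in each line, by 0.66 and 0.87. EDEM3, a relative of EDEM1, differed by 0.61 from untreated with both agents in MT-2 and by -0.10 in MT-1. With both agents in MT-1 the ubiquitin-conjugating enzymes UBE2G2 and UBE2J1 differed by -1.06 and -0.89, and in MT-2 by -0.11 and 0.49.

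Of 18 genes of ER translocation and transport, 3 rose and 3 fell with OR21 in MT-1 (16.5% of all probe sets passed), and 0 passed in MT-2 (0.889%). SEC31A and SEC24D, coat proteins of vesicles that leave the ER, had OR21 effects of 0.81 and 0.79 in MT-1 (limma adjusted p = 0.0261 and 0.045) and of 0.63 and 0.76 in MT-2. SSR4, a subunit of the translocon-associated complex, and SEC11C, of the signal peptidase, fell in MT-1 (-1.09 and -0.93, adjusted p = 0.0129 and 0.0237) and had effects of -0.22 and 0.31 in MT-2. The others called were KDELR3, higher but under background on 3 of the 4 MT-1 arrays, and SPCS2, lower. With both agents the median change was -0.21 in MT-1, where 7 of 18 were higher, and 0.51 in MT-2, where 17 of 18 were. Of all 12942 probe sets tested, 6035 rose on that MT-1 array (median -0.05) and 6272 on that MT-2 array (median -0.02).

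No gene among 7 stress sensors and their activators passed for either agent in either line. CREB3, a membrane-bound transcription factor of the ATF6 type, stood at 10.54, 9.83, 10.11 and 9.77 in MT-1 and at 9.31, 9.97, 10.05 and 10.39 in MT-2. It was below untreated on every treated MT-1 array and above it on every treated MT-2 array, and its OR21 effects differed by 1.03 (limma adjusted p = 0.0957). ATF6B and MBTPS1, the protease that cuts ATF6, were higher with both agents in each line, by 1.02 and 0.49 in MT-1 and by 0.61 and 0.83 in MT-2. ERN1, which encodes IRE1, was under background on all MT-1 arrays and stood at 8.60, 8.79, 7.93 and 9.33 in MT-2.

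Heat shock proteins of the cytosol and mitochondria belong to a neighbouring stress response. Of 10, 1 rose and 0 fell with OR21 in MT-1 (16.5% of all probe sets passed), and 0 passed in MT-2 (0.889%). HSPA1A rose in MT-1 (2.58, limma adjusted p = 0.00141; levels 9.80, 11.98, 9.59 and 12.57), and it was under background on all 4 MT-2 arrays, so no difference between the lines is given. HSPA1A has a near-identical copy, so its value is uncertain as to the gene. The mitochondrial chaperonins HSPD1 and HSPE1 were lower with both agents in each line, by -0.93 and -1.16 in MT-1 and by -0.52 and -0.49 in MT-2. DNAJB1, a co-chaperone of the cytosol, differed from untreated by 0.75 with OR21 in MT-2.

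Several list medians near 0 depended on the scaling. Median-centred arrays turned that of the ER-associated degradation list in MT-1 with both agents from 0.12 to -0.11, and with OR21 that of the stress sensors in MT-1 from 0.02 to -0.14, that of the heat shock proteins in MT-1 from 0.10 to -0.06 and that of the folding factors in MT-2 from 0.03 to -0.01. Cyclic loess turned the degradation list in MT-1 with OR21 from -0.05 to 0.06 and the heat shock proteins in MT-1 with both from -0.08 to 0.04.

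**Figure D3:**
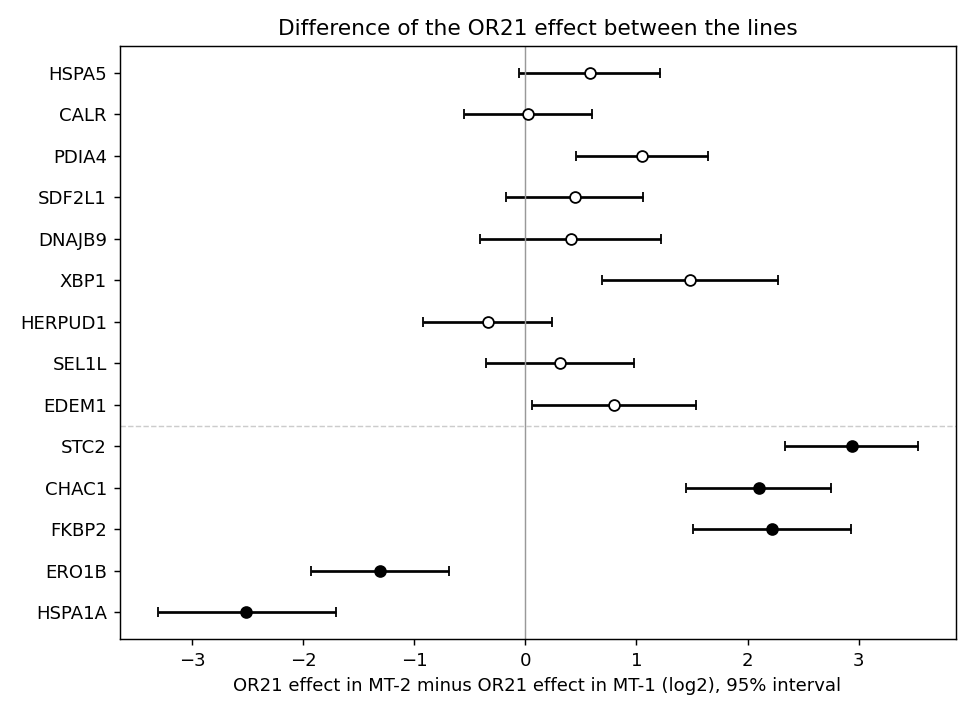
Difference of the OR21 effect between the lines, MT-2 minus MT-1 in log2 units (horizontal axis), for each of the 9 genes and, under the dashed line, 5 stress genes in which it was called. SDF2L1 and HSPA1A were under background on all MT-2 arrays, and FKBP2 on the untreated and OR21 arrays of MT-2. Points are limma estimates over 8 arrays, bars 95% intervals, and filled points passed an adjusted p of 0.05. XBP1 (1.48) and PDIA4 (1.05) lie farthest to the right of the 9 genes without passing, and STC2 (2.94) passed.

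**Figure D4:**
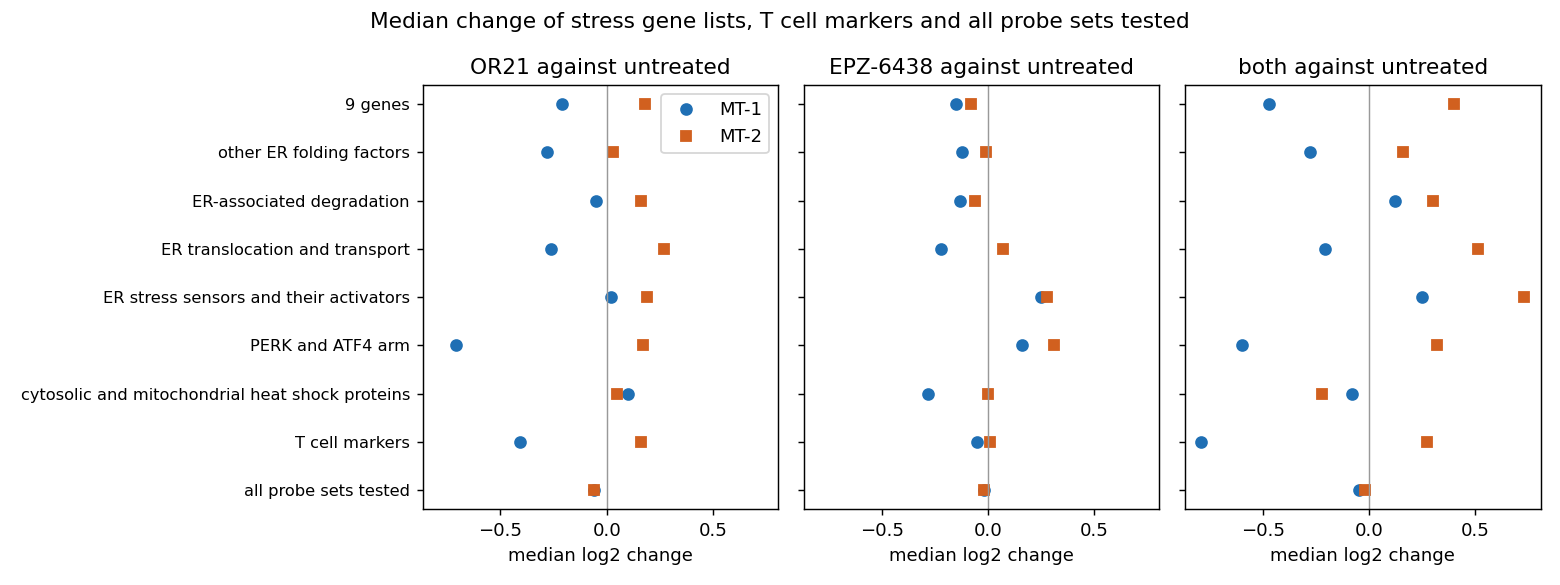
Median log2 change against the untreated array (horizontal axes) of the 9 genes, of 6 further stress gene lists, of the T cell markers and of all probe sets tested (rows), in MT-1 (circles) and MT-2 (squares) with OR21, EPZ-6438 and both. For the PERK and ATF4 arm it was -0.71 (MT-1) and 0.17 (MT-2) with OR21, for the T cell markers -0.41 and 0.16, and for all probe sets -0.06 in each line. Of the 7 T cell markers tested, 3 stood above background on all 8 arrays.

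The 9 genes did not move as a block. After the mean of each line was removed, over 8 arrays and without SDF2L1, EDEM1 followed the mean of the others most closely (r = 0.78), then XBP1 (0.66), SEL1L (0.57), DNAJB9 (0.55), PDIA4 (0.55) and HSPA5 (0.49). CALR (0.08) and HERPUD1 (-0.44) did not follow it. DNAJB9 and SEL1L went together (0.93), and CALR and HERPUD1 were mirror images (-0.97) although CALR moved by no more than 0.08. These are descriptions over arrays that share a line and a treatment.

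The profiles most like the mean of the 8 genes, of 6020 named genes above background on all arrays, were those of SERP1 (r = 0.981), DAAM1 (0.973), SLC35H1 (0.972), DPAGT1 (0.969), SIRT2 (0.967), IBTK (0.959), NPIPB4 (0.956) and CZIB (0.948). SERP1, a small protein of the ER membrane induced by ER stress, changed by -0.52, 0.10 and -0.28 in MT-1 and by 0.43, -0.03 and 0.91 in MT-2 (OR21, EPZ-6438, both). DPAGT1, the enzyme that starts the sugar chain for N-glycosylation, changed by -0.43, 0.08 and -0.20 in MT-1 and by 0.52, 0.33 and 1.29 in MT-2. NPIPB4 has near-identical family copies, so its value is uncertain.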

How the data were processed

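The authors deposited log2 values made with RMA, per the submitters' processing notes. Its version was not stated in the sources used here. Since RMA gives logs to base 2, the values are read as such, although some, up to 18.91, exceed the 16 of a 16-bit scanner. RNA was DNase-treated and labelled as biotinylated single-stranded cDNA, per the labels' protocols. Of 24351 entries, 2903 controls were left out. All 17709 annotated Entrez identifiers matched the reference gene table. Probe sets whose highest level reached the table median (6.573) were kept (12942, of them 11025 named).

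Changes within a line are differences between 2 arrays, with no test. limma 3.58.1 (R 4.3.3, lmFit and eBayes) fitted line and treatment (3 residual degrees of freedom), and line, OR21, EPZ-6438 and the products of line with each agent (2 residual degrees of freedom), the latter testing differences between lines, each on all 8 arrays and tested on simulated data. The spread is between arrays of different conditions, since nothing was replicated. Adjusted p is Benjamini-Hochberg over all probe sets kept, called under 0.05. The number of arrays limits precision.

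The genes and lists were chosen with earlier results of these data known. Beyond the 10 genes, the text names up to 4 genes of each further list with the largest change above background, up to 6 list genes whose response differed between the lines, and the 8 most alike profiles. KDELR3, SPCS2 and the markers named outside that rule were chosen after their values were seen. Alternatives were median-centred arrays, cyclic loess, no filter, a filter on the mean level, values under background raised to it, a variance trend, a threshold of 0.5 and leaving out each array.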

Additional observations from a re-analysis of the deposited data

Results flagged for a closer look

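HSPA5 and EDEM1 went below untreated on all 3 treated MT-1 arrays and above it on all 3 treated MT-2 arrays. The tested difference of their OR21 effects, MT-2 minus MT-1, was 0.58 for HSPA5 and 0.80 for EDEM1, and neither passed in limma (adjusted p = 0.267 and 0.199).

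In other genes of the stress response the difference of OR21 effects between the lines passed in limma. It was 2.94 for STC2, 2.10 for CHAC1 and 2.22 for FKBP2, each higher in MT-2, and -1.31 for ERO1B, lower in MT-2. FKBP2 was under background on the untreated and OR21 arrays of MT-2 and on both MT-1 arrays with OR21. Its 2.22 is therefore a fitted value and no measured difference. The fitted value for HSPA1A, -2.51, is no measured difference between the lines: it was under background on all MT-2 arrays and kept in the test through its MT-1 levels.

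Of the T cell markers, the summed difference for both agents passed for CD5 (2.36, adjusted p = 0.0414), which stood at 12.76, 12.29, 12.17 and 11.97 in MT-1 and at 10.64, 10.78, 11.44 and 12.22 in MT-2 (untreated, OR21, EPZ-6438, both). No difference is given for CD3E, which was above background on no array.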

How the results depend on the processing

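No paired analysis was possible because each line and treatment has 1 array and the labels carry no replicate numbers. Leaving out an array removes a change within a line rather than altering it, so this was not run for those changes, and the variance trend does not apply to them. In the fit of each agent's effect in each line, leaving out an array takes the spread from the other line alone. Differences between the lines cannot be told apart from dose, and levels near background limit SDF2L1, FKBP2 and CHAC1.

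With cyclic loess the line difference changed sign for HSPA5 (0.28), CALR (0.01) and SEL1L (0.35). Leaving out 1 array gave -0.15 to 0.13 for HSPA5, -0.02 to 0.14 for HERPUD1 and -0.04 to 0.11 for DNAJB9. The opposite-sign count with OR21 was 3 with cyclic loess, against 5.

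The OR21 difference between the lines was called for 530 probe sets, 1400 with values raised to background and 1134 with a variance trend, and the summed difference for 454, 1507 and 1231. Of the 9 genes, median centring called 1 in each, raising to background 3 in each, and the trend 2 and 1. The EPZ-6438 difference was called for 0 probe sets, 1 with no filter or a mean filter, 200 raised to background and 5 with the trend. OR21 in MT-2 called 115 probe sets and 0 of the 9 genes, against 640 and 2 raised to background and 449 and 2 with the trend. OR21 in MT-1 called 2 of the 9 genes with the trend. EPZ-6438 in MT-1 called 3 probe sets, against 1 (loess), 8 (no filter), 626 (raised to background) and 103 (trend), and in MT-2 0, against 1 (mean filter), 231 (raised) and 22 (trend). Both agents across lines called 0, and 10 with the trend. Raising to background makes the low values of an array equal, and the part of this in the counts was not tested. The cause of the other shifts was not tested either.

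Leaving out 1 array gave 51 to 962 probe sets for the OR21 difference, 0 to 141 for the EPZ-6438 difference, 0 to 1086 for the sum, 490 to 1750 for OR21 in MT-1, 0 to 169 for OR21 in MT-2, 0 to 349 for EPZ-6438 in MT-1, 0 to 747 for both agents across lines and 0 to 7 for the excess. Of the 9 genes it called 0 to 1 for the OR21 difference, the sum, OR21 in MT-1 and both agents across lines (SDF2L1 without the both-agent array of MT-2, adjusted p = 0.0468).

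At a threshold of 0.5, 4208, 1937 and 6220 probe sets (OR21, EPZ-6438, both) were counted in MT-1 and 3200, 1817 and 4073 in MT-2, with 3 (OR21) and 3 (both) of the 9 genes in MT-1 and 3, 1 and 5 in MT-2. With values raised to background, 630 (OR21) and 47 (EPZ-6438) probe sets changed by 1 or more in MT-1 and 204, 49 and 483 in MT-2. A mean filter gave 110 and 105 for EPZ-6438, and median centring put 1 of the 9 genes past 1 for OR21 in MT-1.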
